A study of Mus musculus with 12 samples.

Results

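The nucleolar machinery that makes ribosomes, together with the Myc network that is known to drive its genes, was examined in cultured mouse myeloid-derived suppressor cells (MDSCs). The module held 40 genes chosen by symbol, and all 40 were found among the 35303 symbols of the count table. All 40 also passed the filter of at least 2 counts over the 12 libraries, which left 17676 symbols for testing. MDSCs are immunosuppressive myeloid cells, and those sequenced here were wild-type cells grown with IL-6 and GM-CSF from the marrow of female C57BL/6 mice, aged between 6 and 10 weeks, and purified. The 3 groups, each with 4 libraries, were unmodified cells (MDSC), cells carrying empty PLGA NPs on their surface (MDSC-NP-Blk), and cells carrying PLGA NPs filled with rapamycin (CITED). IL-6 at 40 ng/ml was present during the last 24 hours of culture in every group. For conjugation, azido groups were placed on the cells to bind the DBCO of the particles, and a group with rapamycin but without particles is not among the samples. Whether the unmodified MDSC group also received the azido label is not stated, so a difference relative to MDSC may include that step. The libraries are described as independent biological replicates, and the methods do not state which share a mouse or a marrow preparation. The tissue field reads CNS, although by the methods the cells came from marrow cultures.

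Ribosome production starts in the nucleolus, where RNA polymerase I copies the ribosomal DNA into a long precursor RNA. Small nucleolar ribonucleoproteins (snoRNPs) then modify this precursor, and separate sets of assembly factors build the small and the large subunit around it. Myc binds DNA as a dimer with Max and raises the transcription of many of these genes, whereas Mxd1 competes for Max and represses the same sites. Rapamycin inhibits mTOR, a kinase known to promote transcription by RNA polymerase I and the translation of ribosomal protein messages. In the myeloid lineage, Myc is known to fall and Mxd1 to rise as granulocytes mature. The RNA was enriched for poly(A), so the ribosomal RNA itself was not measured. The 40 genes were read in 6 role groups, which were the Myc network (4 genes), RNA polymerase I (5), snoRNPs (8), other nucleolar proteins (5), small subunit factors (9), and large subunit factors (9).

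Myc-Max dimers recognize the palindrome CACGTG, the canonical E-box, which reads the same on both strands. Promoter windows of 300 bases, from 250 before to 50 after the annotated start, were taken from RefSeq (GRCm38.p6) and matched to 35 of the 40 genes, which had 44 windows. The motif was found in 9 of these 44 windows (20.5%) and in 2349 of the 32851 windows of all genes (7.15%). It was present for Ltv1, Max, Mybbp1a, Nop2, Pes1, Rrn3, Utp20, Utp4, and Wdr43. A match describes the letters only, and binding of Myc was not measured. Of the genes described below in each library, 3 hold the motif in their window, and their windows are shown to place it, in lower case with the motif in capitals and 5′ to 3′ on the strand of the gene. The Max window lies at chr12:76962199-76962498 on the minus strand with the motif starting 3 bases before the annotated start. The Mybbp1a window lies at chr11:72441077-72441376 on the plus strand with the motif starting at base 41, counting the annotated start as base 1. The Utp20 window lies at chr10:88826765-88827064 on the minus strand with the motif starting at base 38 in the same count.
Max: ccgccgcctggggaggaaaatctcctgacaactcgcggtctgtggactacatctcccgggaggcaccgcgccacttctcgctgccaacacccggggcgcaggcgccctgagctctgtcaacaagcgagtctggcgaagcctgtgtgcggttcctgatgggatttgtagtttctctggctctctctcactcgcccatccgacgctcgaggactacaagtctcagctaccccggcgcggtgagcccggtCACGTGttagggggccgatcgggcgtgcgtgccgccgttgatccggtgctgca
Mybbp1a: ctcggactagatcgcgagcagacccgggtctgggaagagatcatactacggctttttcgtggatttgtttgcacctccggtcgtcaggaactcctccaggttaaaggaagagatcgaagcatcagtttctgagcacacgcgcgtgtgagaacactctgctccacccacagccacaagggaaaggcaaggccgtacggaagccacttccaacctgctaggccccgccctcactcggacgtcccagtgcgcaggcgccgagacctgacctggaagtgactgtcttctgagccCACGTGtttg
Utp20: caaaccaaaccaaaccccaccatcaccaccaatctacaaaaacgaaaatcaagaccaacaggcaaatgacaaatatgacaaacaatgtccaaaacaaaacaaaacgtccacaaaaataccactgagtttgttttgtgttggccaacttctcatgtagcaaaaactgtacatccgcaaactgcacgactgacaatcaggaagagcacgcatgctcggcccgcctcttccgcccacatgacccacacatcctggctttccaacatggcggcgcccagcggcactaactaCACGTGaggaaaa
Of the 9 genes with the motif, 2 rose, 5 fell, and 2 did not pass the test in CITED relative to MDSC. Of the 26 matched genes without it, 5 rose, 14 fell, and 7 did not pass. Max was higher in both particle groups than in MDSC, whereas Mybbp1a and Utp20 were lower, so these 3 windows belong to genes that moved in opposite directions.

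The libraries held 20604809 to 37855478 gene counts. The detection floor of 3 counts equals 7.92e-06% to 1.46e-05% of these totals and reflects counting error alone. The 40 genes took 0.263% to 0.266% of the counts of MDSC libraries, 0.246% to 0.261% for MDSC-NP-Blk, and 0.226% to 0.233% for CITED. The markers of the sorted population were present in every library, with Itgam (encoding CD11b) at 50260 to 72110 and Ly6g at 3812 to 4999 normalized counts, a count scaled to the mean library after TMM normalization. Genes were called higher or lower at an adjusted p-value below 0.05 by edgeR's quasi-likelihood test with Benjamini-Hochberg adjustment over all 17676 symbols. Each error beside a log2 fold change is its standard error. Because whole cultures were sequenced, fewer cells of a type and less RNA per cell cannot be told apart.

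Most genes of the module that changed were lower in both particle groups. Of the 40 genes, 21 fell, 8 rose, and 11 did not pass the test in CITED relative to MDSC. Over all symbols tested, 22.2% fell and 22.2% rose (44.5% in either direction), so the share of the module that fell was 52.5% beside a background of 22.2%. The 40 genes were chosen with earlier results of these data known. The comparison of shares therefore describes this list and is not a test of ribosome biogenesis genes. Of 150 other ribosome biogenesis genes, 32.0% fell and 26.7% rose, with a median of −0.09. The median log2 fold change of the module was −0.31, and that of all symbols was −0.05. The symbols tested include many with few counts, so the background depends on the filter. With edgeR's expression filter, 3877 of 12379 symbols fell and 3968 rose in CITED relative to MDSC, a larger share than without it. Under that filter, 21 genes of the module fell and 9 rose. In MDSC-NP-Blk relative to MDSC, 22 fell, 6 rose, and 12 did not pass, beside 18.6% of all symbols lower, 19.9% higher, and 38.6% in either direction. The median there was −0.44 for the module and −0.03 for all symbols. With the expression filter, 3340 of 12379 symbols fell and 3556 rose in MDSC-NP-Blk relative to MDSC, beside 22 and 6 genes of the module. These comparisons share the MDSC libraries, so they are not independent of each other. In CITED relative to MDSC-NP-Blk, 5 rose, 6 fell, and 29 did not pass, beside 10.5% of all symbols higher and 11.4% lower, and the median was 0.10.

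The changes were mostly smaller than 2-fold. With the study's further requirement of a change of 2-fold or more, only Nop58 (−1.02) and Dkc1 (−1.03) passed in CITED relative to MDSC, both lower, beside 6.7% of all symbols lower, 3.28% higher, and 9.99% in either direction. In MDSC-NP-Blk relative to MDSC, Polr1b (−1.08), Utp20 (−1.03), and Rrp12 (−1.02) passed, all lower, beside 2.86% of all symbols lower, 1.88% higher, and 4.74% in either direction. In CITED relative to MDSC-NP-Blk, 0 passed with edgeR, 0 at an unadjusted p below 0.05, and 0 with DESeq2, beside 2.65% of all symbols in either direction (0.651% higher and 2% lower), and the largest absolute log2 fold change in the module was 0.53. These counts rest on values close to the threshold. Without CITED library 4, 1 gene passed in CITED relative to MDSC, and without MDSC-NP-Blk library 1 or library 4, 1 and 0 passed in MDSC-NP-Blk relative to MDSC.

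The groups were also apart library by library. All 4 CITED libraries lay below all 4 MDSC libraries for 21 of the 40 genes, beside 21.2% of all symbols, and above them for 9, also beside 21.2%. All 4 MDSC-NP-Blk libraries lay below MDSC for 20 genes, beside 17.4%, and above for 6, beside 18.1%. For CITED relative to MDSC-NP-Blk, 6 genes lay fully above and 6 fully below, beside 10.4% and 10.8%. Scaling by library size alone, without TMM factors, moved the median of all symbols by −0.27 in CITED and by −0.26 in MDSC-NP-Blk relative to MDSC. It changed the split of the module to 2 higher and 28 lower in CITED and to 4 higher and 31 lower in MDSC-NP-Blk, beside 12.4% of all symbols higher and 35.8% lower in CITED and 9.4% higher and 34.5% lower in MDSC-NP-Blk. Relative to the median of all symbols, the median of the module was −0.26 in CITED under either scaling, and −0.41 with TMM and −0.42 without it in MDSC-NP-Blk. These values do not show which scaling is right, and small fold changes relative to MDSC are read on the TMM scale by choice.

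**Figure D1:**
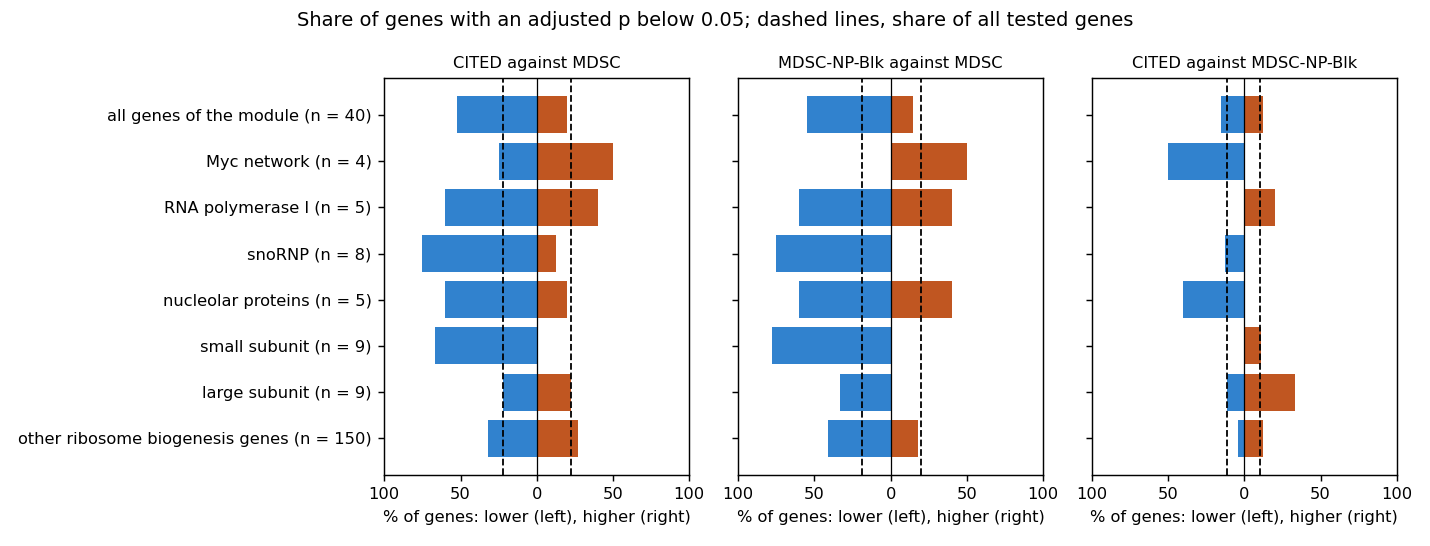
Share of genes called lower (bars to the left, % of genes) and higher (bars to the right) in each role group and in 150 other ribosome biogenesis genes, for the 3 comparisons, with dashed lines at the shares of all 17676 symbols. Small subunit factors have bars to the left only against MDSC, with 66.7% lower in CITED and 77.8% lower in MDSC-NP-Blk.

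Myc itself was lowest in CITED, while its partner Max and its antagonist Mxd1 were higher in both particle groups. Myc (chr15:61857227-61862223, GRCm39 here and for all gene positions) read 1652, 1635, 1568, and 1503 in the MDSC libraries, 1524, 1770, 1728, and 1512 in those of MDSC-NP-Blk, and 1216, 1101, 1262, and 1417 in the CITED libraries, in normalized counts and in the order of libraries 1 to 4. All 4 CITED libraries lay below every library of the other groups, and MDSC and MDSC-NP-Blk overlapped. The log2 fold change was −0.35 ± 0.07 in CITED relative to MDSC (adjusted p = 0.000119, edgeR) and −0.39 ± 0.07 relative to MDSC-NP-Blk (adjusted p = 8.01e-05). Relative to MDSC, Myc in MDSC-NP-Blk was at 0.04 ± 0.07 (adjusted p = 0.689), and no alternative called it except scaling by library size alone, which gave −0.22.

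Mxd1, a repressor that takes Max from Myc, had the highest counts of the network. Mxd1 (chr6:86624024-86646218) read 12710, 13790, 12990, and 13370 in the MDSC libraries, 21720, 24040, 23700, and 22540 in those of MDSC-NP-Blk, and 18630, 18990, 19220, and 18780 in the CITED libraries. The groups did not overlap at all, with MDSC lowest, CITED in between, and MDSC-NP-Blk highest. It was higher by 0.52 ± 0.04 in CITED (adjusted p = 4.74e-12) and by 0.80 ± 0.04 in MDSC-NP-Blk (adjusted p = 2.42e-16) relative to MDSC, and it was lower in CITED than in MDSC-NP-Blk, at −0.28 ± 0.04. Max (chr12:76984043-77009009), the shared partner of the network, read 1284, 1351, 1270, and 1309 in the MDSC libraries, 1818, 1778, 1620, and 1703 in those of MDSC-NP-Blk, and 1744, 1669, 1667, and 1720 in the CITED libraries. Both particle groups lay above MDSC and overlapped with each other. Max rose by 0.38 ± 0.06 in CITED (adjusted p = 1.39e-06) and by 0.41 ± 0.06 in MDSC-NP-Blk (adjusted p = 6.5e-07), and CITED and MDSC-NP-Blk differed by −0.02 ± 0.06. Scaled by library size alone, Max in CITED was at 0.11 relative to MDSC and no longer passed.

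Mycn, a paralog of Myc, had the lowest counts of the module. Mycn (chr12:12986076-12992915) read 34.6, 42.82, 35.92, and 27.17 in the MDSC libraries, 29.34, 20.69, 13.55, and 30.41 in those of MDSC-NP-Blk, and 27.59, 1.223, 36.63, and 43.53 in the CITED libraries. A CITED library, the second, held 1 read of it, whereas the other CITED libraries held 22, 33, and 45 reads. The total of this library, 21359209 counts, was close to the 21336119 counts of the first CITED library. No comparison passed, at −0.35 ± 0.46 (CITED) and −0.59 ± 0.46 (MDSC-NP-Blk) relative to MDSC. Differences within these errors were not detectable with these libraries.

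**Figure D2:**
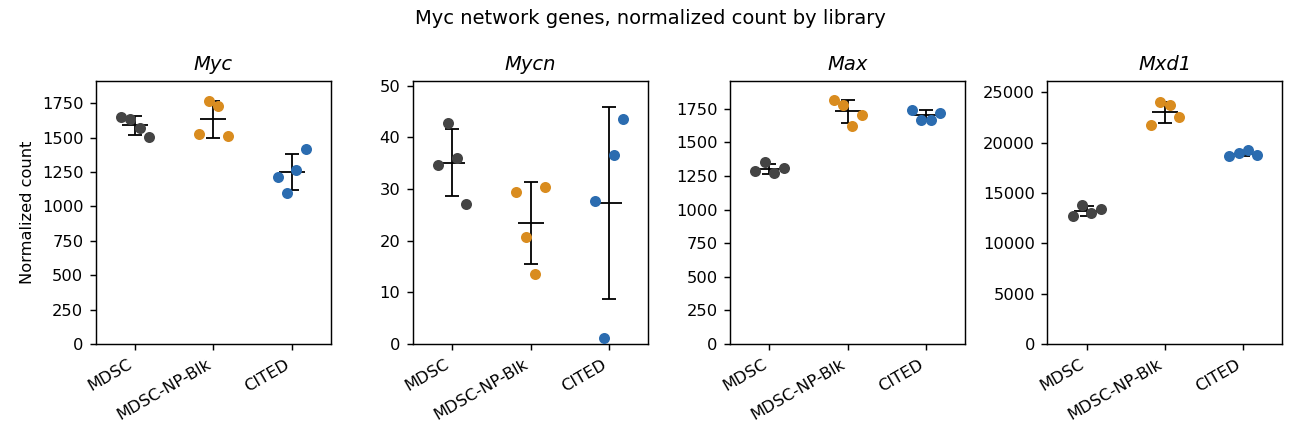
Normalized counts (y axis, from 0, with a scale per gene) of Myc, Mycn, Max, and Mxd1 in each library (points) of the 3 groups, with the mean and SD of 4 libraries (bars). CITED libraries sit between 1101 and 1417 for Myc, below all others, and the 3 groups are apart for Mxd1.

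The subunits and factors of RNA polymerase I moved in both directions, and all 5 passed the test against MDSC in each particle group. Over all symbols, 44.5% passed in CITED and 38.6% in MDSC-NP-Blk. Polr1a, Polr1b, and Rrn3 were lower and Polr1c and Ubtf were higher. Polr1a (chr6:71886021-71961919), the largest subunit, read 737.7, 663.3, 687.1, and 794.1 in the MDSC libraries, 378.8, 375.1, 479.5, and 308.7 in those of MDSC-NP-Blk, and 400.0, 371.7, 370.8, and 321.2 in the CITED libraries. Both particle groups lay entirely below MDSC. Polr1a fell by 0.98 ± 0.10 in CITED (adjusted p = 5.44e-10) and by 0.90 ± 0.10 in MDSC-NP-Blk (adjusted p = 4.77e-09). Polr1b, the partner of Polr1a in the catalytic core, was at −0.88 ± 0.13 in CITED and −1.08 ± 0.14 in MDSC-NP-Blk, with values of 344.2 to 392.1 for MDSC, 127.5 to 235.6 for MDSC-NP-Blk, and 191.5 to 217.7 for CITED. Rrn3, the initiation factor that links the polymerase to the promoter, was at −0.25 ± 0.08 and −0.54 ± 0.08, in that order. Rrn3 was higher in CITED than in MDSC-NP-Blk, at 0.30 ± 0.09 (adjusted p = 0.00996). This call was lost without MDSC-NP-Blk library 4 (0.21), and the call of Rrn3 in CITED relative to MDSC was lost when transcript length was corrected for (−0.19). Polr1b gained a call as higher in CITED than in MDSC-NP-Blk without MDSC-NP-Blk library 3 (0.37).

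Polr1c, a subunit that RNA polymerases I and III share, had the largest increase of the module in CITED relative to MDSC. Polr1c (chr17:46554843-46559126) read 435.7, 506.3, 451.3, and 477.1 in the MDSC libraries, 813.8, 788.9, 719.3, and 877.1 in those of MDSC-NP-Blk, and 822.7, 940.3, 923.6, and 770.0 in the CITED libraries. All libraries of both particle groups lay above all MDSC libraries. It rose by 0.89 ± 0.08 in CITED (adjusted p = 5.15e-11) and by 0.77 ± 0.08 in MDSC-NP-Blk (adjusted p = 1.94e-09). Polr1d, the other small subunit that both polymerases share, is not among the 40 genes but moved in the same direction, at 0.79 ± 0.06 in CITED and 0.69 ± 0.06 in MDSC-NP-Blk. Ubtf (chr11:102195386-102210568), which binds the ribosomal DNA and keeps it open, read 1798, 1882, 1767, and 1750 in the MDSC libraries, 1981, 2096, 2099, and 1909 in those of MDSC-NP-Blk, and 2053, 2096, 2106, and 2164 in the CITED libraries. Both particle groups lay above MDSC by a narrow margin. Ubtf rose by 0.23 ± 0.06 in CITED (adjusted p = 0.000927) and by 0.17 ± 0.06 in MDSC-NP-Blk (adjusted p = 0.0146). Without MDSC-NP-Blk library 2, the latter was at 0.15 and did not pass, and scaled by library size alone Ubtf was at −0.05 and −0.09.

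Among the snoRNP proteins, 6 of 8 fell in CITED and 6 of 8 fell in MDSC-NP-Blk relative to MDSC. Over all symbols, 22.2% fell in CITED and 18.6% in MDSC-NP-Blk. The members that fell were Nop56, Nop58, Rrp9, Dkc1, Gar1, and Nolc1. The exceptions were Fbl, which did not pass in either, and Nhp2, which rose in CITED and did not pass in MDSC-NP-Blk. Nop56 (chr2:130115808-130121238), a core protein of the box C/D particles that guide methylation, read 1208, 1213, 1224, and 1156 in the MDSC libraries, 653.1, 691.6, 766.2, and 643.2 in those of MDSC-NP-Blk, and 615.7, 616.3, 607.2, and 706.2 in the CITED libraries. Every library with particles was below every MDSC library. Nop56 fell by 0.91 ± 0.08 in CITED (adjusted p = 1.98e-12) and by 0.80 ± 0.07 in MDSC-NP-Blk (adjusted p = 7.33e-11). Of the 31-base words of Nop56, 31.5% also occur in transcripts of other genes, chiefly Gm25432 (27.0%), so its counts could have been split. Nop58, its partner in the same particles, was at −1.02 ± 0.10 and −0.73 ± 0.10, and it was lower in CITED than in MDSC-NP-Blk, at −0.29 ± 0.10 (adjusted p = 0.034). This last call was lost without any of 6 libraries, at −0.27 without MDSC-NP-Blk library 1 or 2, −0.20 without library 3, and −0.29, −0.24, and −0.29 without CITED libraries 2, 3, and 4. It was also lost with the correction for length (−0.18), for length and GC content (−0.11), and in a fit of the 8 libraries of the comparison alone (−0.28). Fbl, the methyltransferase of the box C/D particles, read 892.5 to 1066 for MDSC, 894.6 to 1063 for MDSC-NP-Blk, and 1035 to 1130 for CITED. Fbl shares 74.1% of its words with other transcripts, mostly Fbl-ps2, and is uncertain for that reason.

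The box H/ACA particles, which guide pseudouridylation, held members on both sides. Dkc1 (chrX:74139460-74155456), the pseudouridine synthase, read 710.1, 715.6, 662.2, and 750.8 in the MDSC libraries, 404.3, 387.5, 422.2, and 332.1 in those of MDSC-NP-Blk, and 356.1, 384.0, 331.9, and 315.4 in the CITED libraries. The values of both particle groups were below those of MDSC and overlapped with each other. Dkc1 fell by 1.03 ± 0.09 in CITED (adjusted p = 8e-12) and by 0.88 ± 0.09 in MDSC-NP-Blk (adjusted p = 5.23e-10), and CITED and MDSC-NP-Blk differed by −0.16 ± 0.09 (adjusted p = 0.255). Nhp2 (chr11:51510383-51520806), an RNA-binding protein of the same particles, read 1084, 1132, 1061, and 1012 in the MDSC libraries, 1329, 1100, 1089, and 1151 in those of MDSC-NP-Blk, and 1273, 1198, 1207, and 1268 in the CITED libraries. All CITED libraries lay above MDSC, whereas MDSC-NP-Blk overlapped with both. The difference was 0.21 ± 0.07 in CITED (adjusted p = 0.0156) and 0.12 ± 0.07 in MDSC-NP-Blk (adjusted p = 0.192). The call of Nhp2 in CITED was lost without MDSC library 4 (0.18), and it was at −0.01 after correction for transcript length and at −0.07 with scaling by library size alone. Gar1, the other small H/ACA protein, was at −0.46 ± 0.14 in CITED and −0.44 ± 0.14 in MDSC-NP-Blk, and Nolc1, a chaperone of both kinds of particle, was at −0.56 ± 0.11 and −0.57 ± 0.11. Rrp9, a protein of the particle that directs early cleavage of the precursor, was at −0.33 ± 0.14 in CITED (adjusted p = 0.046) and −0.45 ± 0.14 in MDSC-NP-Blk. The call of Rrp9 in CITED did not hold with DESeq2 (−0.34), and it was lost without MDSC libraries 1 (−0.33), 2 (−0.29), or 3 (−0.28) and without CITED libraries 1 (−0.35), 2 (−0.27), or 3 (−0.29).

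**Figure D3:**
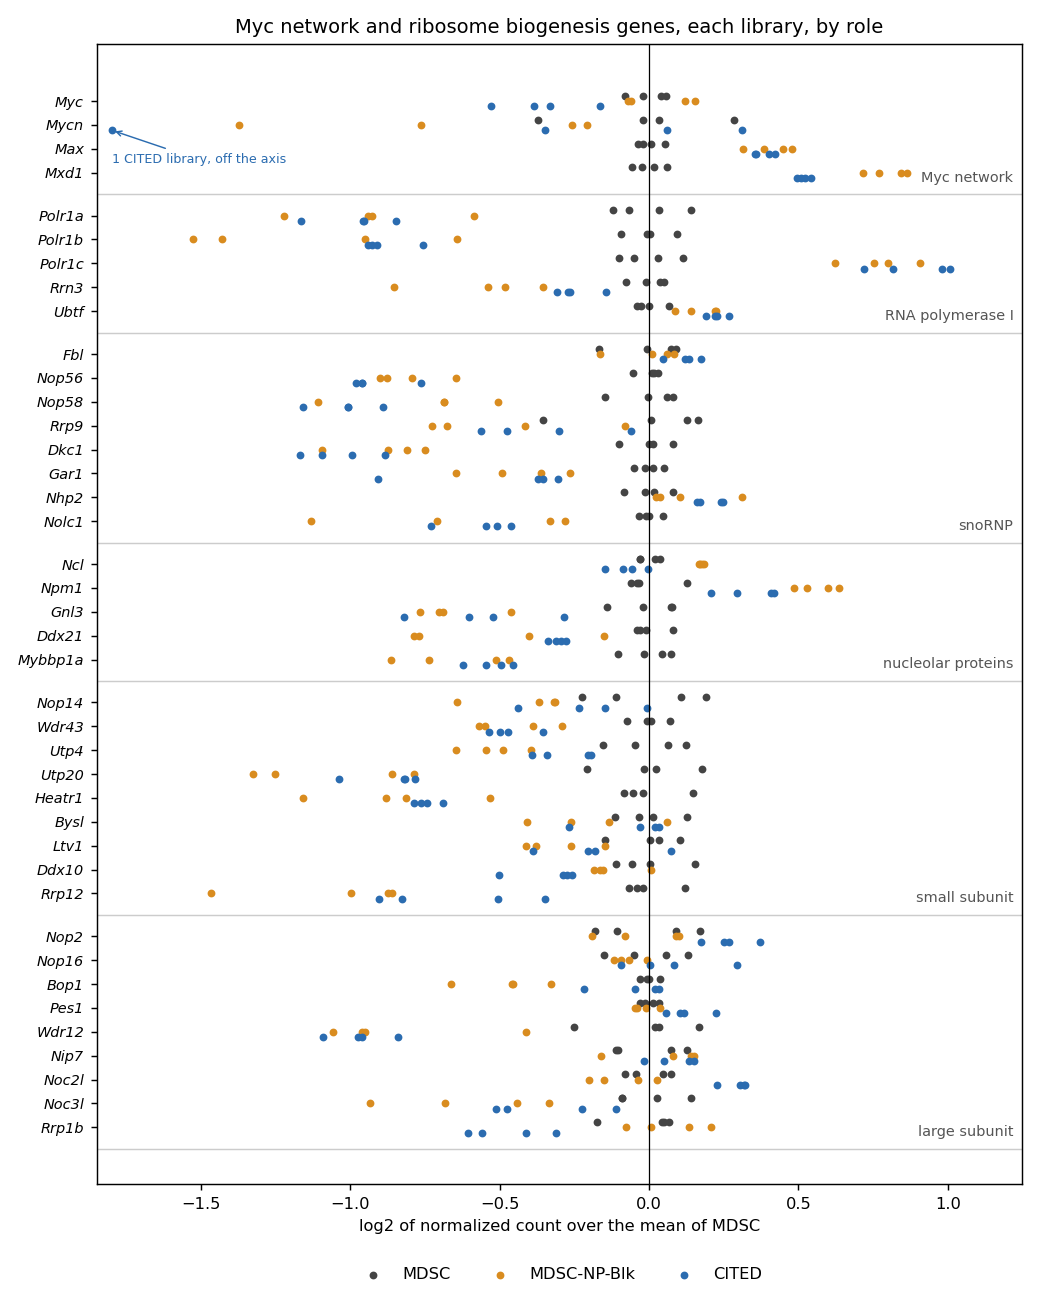
log2 of the normalized count of each library over the mean of the 4 MDSC libraries (x axis) for the 40 genes by role group, with a point per library and color for the group. The CITED library with 1 read of Mycn lies beyond the axis and is drawn as an arrow at its edge. For Polr1a, Nop56, and Dkc1 the points of both particle groups lie left of all MDSC points.

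Of the 5 other nucleolar proteins, 3 fell in both particle groups relative to MDSC and the most abundant did not. Beside this, 22.2% of all symbols fell in CITED and 18.6% in MDSC-NP-Blk. Mybbp1a (chr11:72332069-72342596), a nucleolar protein that binds Myb, read 2177, 2316, 2416, and 2462 in the MDSC libraries, 1286, 1694, 1642, and 1405 in those of MDSC-NP-Blk, and 1603, 1520, 1707, and 1660 in the CITED libraries. All libraries with particles were below all MDSC libraries. Mybbp1a fell by 0.53 ± 0.07 in CITED (adjusted p = 8.19e-08) and by 0.63 ± 0.07 in MDSC-NP-Blk (adjusted p = 3.43e-09). Gnl3 (nucleostemin, a nucleolar GTPase) was at −0.55 ± 0.10 and −0.65 ± 0.10, and the RNA helicase Ddx21 was at −0.31 ± 0.09 and −0.50 ± 0.09. Corrected for transcript length, Ddx21 in CITED was at −0.17 and no longer passed. Ddx21 was at 0.19 ± 0.09 in CITED (adjusted p = 0.124) relative to MDSC-NP-Blk, and it passed there without MDSC-NP-Blk library 3 (0.33).

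Npm1 and Ncl, the abundant histone and RNA chaperones of the nucleolus, had their highest values in MDSC-NP-Blk. Npm1 (nucleophosmin, chr11:33100281-33113267) read 6732, 6003, 6029, and 5911 in the MDSC libraries, 9578, 8896, 8643, and 9338 in those of MDSC-NP-Blk, and 8244, 8176, 7124, and 7565 in the CITED libraries. The 3 groups did not overlap, with MDSC lowest and CITED in between. Npm1 rose by 0.33 ± 0.05 in CITED (adjusted p = 2.52e-06) and by 0.56 ± 0.05 in MDSC-NP-Blk (adjusted p = 1.09e-10) relative to MDSC, and it was lower in CITED than in MDSC-NP-Blk, at −0.23 ± 0.05 (adjusted p = 0.00138). It shares 44.6% of its words with other transcripts, most with Gm9118 (28.8%), and with scaling by library size alone it was at 0.06 in CITED. Ncl (nucleolin) lay between 6864 and 7188 for MDSC, between 7876 and 7965 for MDSC-NP-Blk, and between 6327 and 6987 for CITED. Its difference in CITED relative to MDSC was −0.07 ± 0.05 (adjusted p = 0.208), whereas it rose by 0.18 ± 0.05 in MDSC-NP-Blk and was lower in CITED than in MDSC-NP-Blk, at −0.25 ± 0.05 (adjusted p = 7.35e-05). The direction of Ncl in CITED relative to MDSC depended on the correction, at 0.26 with transcript length corrected and at −0.35 with scaling by library size alone, and each of these passed. Scaled by library size alone, Ncl in MDSC-NP-Blk relative to MDSC was at −0.09 and did not pass, and with the length and GC correction Ncl in CITED relative to MDSC-NP-Blk was at −0.11 and did not pass.

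All 9 small subunit factors had negative log2 fold changes in both particle groups relative to MDSC. Of these, 6 fell in CITED and 7 fell in MDSC-NP-Blk, beside 22.2% and 18.6% of all symbols, in that order. Heatr1 (chr13:12409908-12455170), a factor of the first complex on the precursor that is also needed for its transcription, read 1100, 1123, 1150, and 1291 in the MDSC libraries, 521.7, 662.7, 806.8, and 633.8 in those of MDSC-NP-Blk, and 675.9, 722.7, 687.2, and 695.6 in the CITED libraries. The particle groups lay below MDSC in every library, and MDSC-NP-Blk spread the most, from 521.7 to 806.8. Heatr1 fell by 0.75 ± 0.09 in CITED (adjusted p = 9.97e-09) and by 0.82 ± 0.09 in MDSC-NP-Blk (adjusted p = 1.92e-09). Utp20 (chr10:88582469-88662699), a large protein of the same processome, read 646.4, 494.8, 565.5, and 580.7 in the MDSC libraries, 239.8, 331.7, 314.8, and 228.0 in those of MDSC-NP-Blk, and 324.8, 324.0, 278.6, and 331.8 in the CITED libraries. Its values in both particle groups were below all MDSC values and overlapped with each other. Utp20 fell by 0.86 ± 0.11 in CITED (adjusted p = 3.79e-08) and by 1.03 ± 0.11 in MDSC-NP-Blk (adjusted p = 1.73e-09).

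The other small subunit factors showed smaller differences than these in CITED, whereas in MDSC-NP-Blk Rrp12 was close to Utp20. Rrp12, which acts in export and maturation of the subunit, was at −0.63 ± 0.13 in CITED and −1.02 ± 0.13 in MDSC-NP-Blk. Wdr43 and Utp4, which belong to the same early subcomplex, were at −0.47 ± 0.08 and −0.28 ± 0.09 in CITED and at −0.44 ± 0.08 and −0.52 ± 0.09 in MDSC-NP-Blk. Ddx10, an RNA helicase, fell in CITED (−0.33 ± 0.09) and was at −0.12 ± 0.09 in MDSC-NP-Blk, which did not pass, and the difference between these groups was −0.21 ± 0.09 (adjusted p = 0.108). With the length and GC correction, Ddx10 in CITED was at −0.20 and did not pass. Nop14 and Ltv1, an assembly factor and a late export factor, fell in MDSC-NP-Blk (−0.40 ± 0.11 and −0.29 ± 0.10) and were at −0.20 ± 0.11 and −0.17 ± 0.10 in CITED, which did not pass. Bysl, a factor of late maturation, did not pass in any comparison, at −0.05 ± 0.10 and −0.17 ± 0.10. The calls of Ltv1 and Bysl turned on single libraries. Ltv1 passed in CITED without CITED library 2 (−0.25), and was lost in MDSC-NP-Blk without MDSC library 4 (−0.26), while Bysl passed in MDSC-NP-Blk without MDSC-NP-Blk library 2 (−0.26).

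The large subunit factors were divided, with 2 higher, 2 lower, and 5 not passing in CITED relative to MDSC. Their shares, 22.2% higher and 22.2% lower, equal those of all symbols, so this split is not particular to these factors. In MDSC-NP-Blk, 3 of the 9 fell and 0 rose, by edgeR, by edgeR at an unadjusted p below 0.05, and by DESeq2. Over all symbols, 18.6% fell and 19.9% rose there by edgeR at the adjusted threshold. Wdr12 (chr1:60108944-60137926) works in the PeBoW complex with Pes1 and Bop1, and it read 362.5, 437.7, 441.2, and 484.1 in the MDSC libraries, 223.2, 221.4, 324.2, and 207.0 in those of MDSC-NP-Blk, and 219.5, 221.3, 240.9, and 202.2 in the CITED libraries. All libraries with particles lay below MDSC, although the third MDSC-NP-Blk library, at 324.2, stood well above the others of its group. Wdr12 fell by 0.96 ± 0.12 in CITED (adjusted p = 3.69e-08) and by 0.82 ± 0.12 in MDSC-NP-Blk (adjusted p = 9.08e-07). Its partners differed from it. Bop1 was at −0.05 ± 0.08 in CITED and −0.47 ± 0.08 in MDSC-NP-Blk (adjusted p = 1.24e-05), and Pes1 was at 0.13 ± 0.06 and −0.02 ± 0.06, neither of which passed. Pes1 shares 23.6% of its words with other transcripts, and Wdr12 also shares some.

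Rrp1b and Noc2l separated CITED from both other groups, in opposite directions. Rrp1b (chr17:32255073-32282540), a nucleolar protein that also binds chromatin, read 1480, 1252, 1464, and 1458 in the MDSC libraries, 1550, 1341, 1418, and 1633 in those of MDSC-NP-Blk, and 929.2, 959.9, 1139, and 1063 in the CITED libraries. All CITED libraries were below all others, and MDSC and MDSC-NP-Blk overlapped. Rrp1b fell by 0.47 ± 0.08 relative to MDSC (adjusted p = 3.27e-06) and by 0.53 ± 0.08 relative to MDSC-NP-Blk (adjusted p = 1.22e-06), and MDSC-NP-Blk was at 0.07 ± 0.07 relative to MDSC. Rrp1b in MDSC-NP-Blk relative to MDSC passed as higher with the length correction (0.21) and as lower with scaling by library size alone (−0.20). Noc2l (chr4:156320376-156332073), which carries early large subunits through the nucleus, read 1417, 1382, 1508, and 1538 in the MDSC libraries, 1487, 1271, 1424, and 1316 in those of MDSC-NP-Blk, and 1709, 1806, 1823, and 1825 in the CITED libraries. Here all CITED libraries were above all others. Noc2l rose by 0.29 ± 0.06 relative to MDSC (adjusted p = 0.000185) and by 0.38 ± 0.06 relative to MDSC-NP-Blk (adjusted p = 1.5e-05). With scaling by library size alone, the first of these was at 0.02.

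Nop2, an RNA methyltransferase of the large subunit, was also higher in CITED, at 0.27 ± 0.09 relative to MDSC and 0.29 ± 0.09 relative to MDSC-NP-Blk. The call of Nop2 relative to MDSC was lost with scaling by library size alone (−0.0037), with the length and GC correction (0.17), and without MDSC library 3 (0.21), and the call relative to MDSC-NP-Blk was lost without MDSC-NP-Blk library 2 (0.23) or CITED library 2 (0.25). Noc3l, the companion of Noc2l in later particles, was at −0.32 ± 0.14 in CITED (adjusted p = 0.0567) and fell in MDSC-NP-Blk (−0.58 ± 0.14, adjusted p = 0.000687). Noc3l passed in CITED without MDSC-NP-Blk libraries 3 or 4 (−0.32 for each), although these are in neither of the groups compared, and without CITED library 3 (−0.39). Nop16 and Nip7, the remaining assembly factors, did not pass in any comparison, with absolute log2 fold changes of 0.02 to 0.14. Mycn, Fbl, Bysl, Nop16, Pes1, and Nip7 were thus the 6 genes of the module that passed in none of the comparisons.

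**Figure D4:**
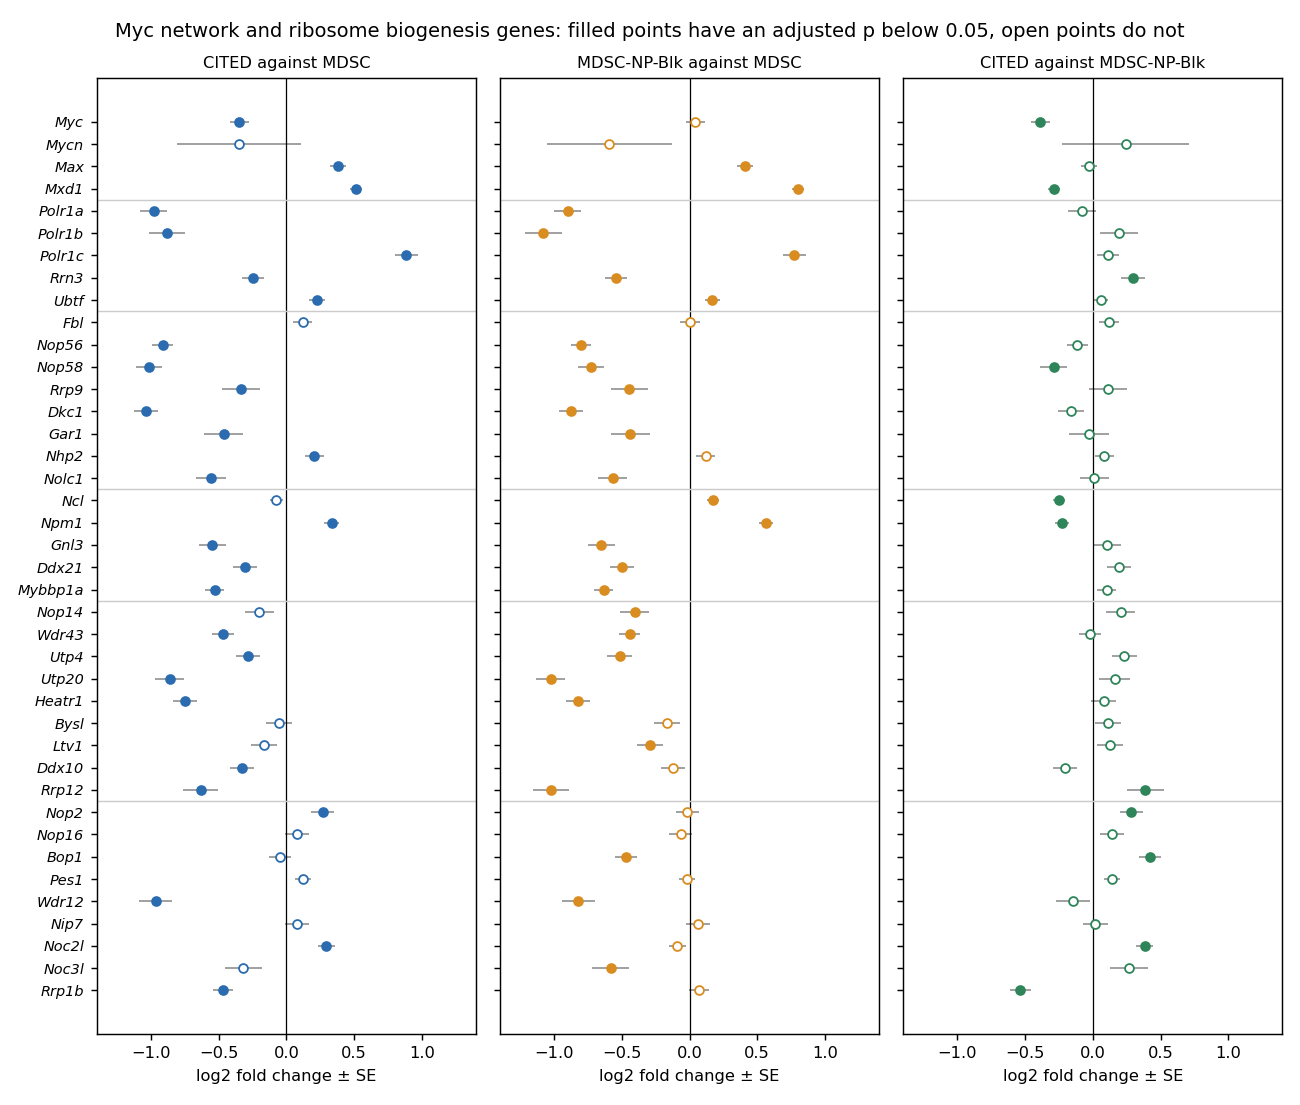
log2 fold change (x axis, with SE bars) of the 40 genes in 3 panels, each a comparison of 2 groups, with filled points where the adjusted p is below 0.05. Points lie mostly left of 0 in the panels against MDSC, and 29 of 40 points are open in the panel of CITED against MDSC-NP-Blk.

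CITED and MDSC-NP-Blk carry the same kind of particle, and by the labels they differ in the rapamycin load. Of the 40 genes, 29 did not pass in this comparison, 12.5% were higher, and 15.0% were lower. Beside this, 10.5% of all symbols were higher and 11.4% lower. With the expression filter, 7 genes of the module were higher and 6 lower, beside 1958 and 2088 of 12379 symbols. These shares are near those of all symbols, so the counts are not read as a result about the module. Those higher in CITED were Bop1 (0.42 ± 0.08), Rrp12 (0.39 ± 0.14), Noc2l (0.38 ± 0.06), Rrn3 (0.30 ± 0.09), and Nop2 (0.29 ± 0.09). Those lower in CITED were Rrp1b (−0.53 ± 0.08), Myc (−0.39 ± 0.07), Nop58 (−0.29 ± 0.10), Mxd1 (−0.28 ± 0.04), Ncl (−0.25 ± 0.05), and Npm1 (−0.23 ± 0.05). The number higher was 3 without MDSC-NP-Blk library 4, 3 without CITED library 2, and 8 without MDSC-NP-Blk library 3. Rrp12 was among those lost, at 0.27 without MDSC-NP-Blk library 4, 0.34 without CITED library 1, and 0.28 without CITED library 2. Utp4 and Pes1, at 0.23 ± 0.09 and 0.14 ± 0.06, passed with DESeq2 (0.24 and 0.14) but not with edgeR, and Utp4 also passed without MDSC-NP-Blk library 3 (0.28).

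The MDSC-NP-Blk libraries were not alike, and this was not limited to these genes. Over symbols with enough counts to compare, the chi-square per degree of freedom was 5.69 between libraries 1 and 4. It was 5.91 between libraries 2 and 3, and 15.7 to 21.8 across these pairs. Libraries 1 and 4 were both below libraries 2 and 3 for 20 of the 40 genes and both above them for 6. The same pattern was not counted over all symbols, so these numbers are not read as a trait of the module. The median over the module of the log2 value relative to the MDSC mean was −0.39 and −0.52 in libraries 1 and 4 and −0.37 and −0.29 in libraries 2 and 3, and it ranged from −0.31 to −0.19 in CITED. Nolc1 shows the split, with 673.5 and 502.9 in libraries 1 and 4 and 875.8 and 906.9 in libraries 2 and 3. With libraries 1 and 4 left out, Nolc1 was lower in CITED than in MDSC-NP-Blk (−0.25), and with libraries 2 and 3 left out it was higher (0.35). The labels give no batch for these libraries, and these omissions were chosen after seeing the data. With libraries 1 and 4 left out, the median of the module in CITED relative to MDSC-NP-Blk was −0.04, and 3 genes were higher. With libraries 2 and 3 left out, 11 were higher. In MDSC-NP-Blk relative to MDSC, the median without libraries 1 and 4 was −0.29.

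Ribosome biogenesis genes outside the 40 were read from lists of their pathways. Of 150 tested genes on these lists, 48 (32.0%) fell and 40 (26.7%) rose in CITED relative to MDSC, beside 22.2% and 22.2% of all symbols, and their median was −0.09. In MDSC-NP-Blk relative to MDSC, 61 (40.7%) fell and 27 rose, beside 18.6% and 19.9%, and in CITED relative to MDSC-NP-Blk 18 rose and 6 fell, beside 10.5% and 11.4%. The shares that rose were near those of all symbols, and the same backgrounds apply to the pathway lists that follow. These backgrounds include symbols with few counts. With edgeR's expression filter they were larger, with 3877 of 12379 symbols lower and 3968 higher in CITED relative to MDSC. The 32.0% that fell in CITED is therefore not read as an excess. Among 45 other small subunit factors, 12 fell and 14 rose in CITED, and 21 fell and 8 rose in MDSC-NP-Blk. Tsr1, a late factor of the small subunit, was at −0.82 ± 0.11 in CITED and −0.92 ± 0.11 in MDSC-NP-Blk, and the RNA acetyltransferase Nat10 was at −0.73 ± 0.11 and −0.85 ± 0.11. Imp3 and Utp14a, 2 proteins of the processome, moved the other way, at 0.87 ± 0.08 and 0.53 ± 0.09 in CITED.

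The 49 other large subunit factors were divided as well, with 17 lower and 14 higher in CITED and 19 lower and 10 higher in MDSC-NP-Blk. Nop53 rose from a mean of 3337 normalized counts for MDSC to 8137 for MDSC-NP-Blk, and 7989 for CITED, which is 1.28 ± 0.05 and 1.26 ± 0.05 on the log2 scale, more than any of the 40 genes. Zfp622, a late cytoplasmic factor, was at 1.13 ± 0.07 in CITED, whereas the methyltransferase Ftsj3 was at −0.81 ± 0.10 and Urb2 at −0.91 ± 0.13. In the exosome and other nucleases that trim the precursor, 5 of 15 fell and 3 rose in CITED. Dis3, a catalytic nuclease of the exosome, was at −1.28 ± 0.12 and the core subunit Exosc8 at −0.93 ± 0.08, whereas the core subunits Exosc4 and Exosc5 were at 0.75 ± 0.10 and 0.57 ± 0.08. Of 10 other snoRNP genes, 2 fell and 1 rose in CITED. The helicases Ruvbl1 and Ruvbl2, which assemble snoRNPs, were at −0.37 ± 0.09 and −0.30 ± 0.07, and the assembly factor Nufip1 was at 0.63 ± 0.09.

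Polymerase genes outside the module showed both directions. Of 10 other RNA polymerase I genes, 3 rose and 1 fell in CITED, and these were led by Polr1d, Polr1h (0.61 ± 0.09), and Polr1e (−0.40 ± 0.15). Of 21 RNA polymerase III genes, 11 (52.4%) fell and 5 rose in CITED and 12 (57.1%) fell and 3 rose in MDSC-NP-Blk. Maf1, the repressor of RNA polymerase III, rose by 0.48 ± 0.06 in CITED and by 0.48 ± 0.06 in MDSC-NP-Blk. Polr3g was at −0.88 ± 0.14 and its paralog Polr3gl at 0.47 ± 0.11 in CITED, so these alternative subunits moved in opposite directions.

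In the wider Myc network, 4 of 10 genes rose and 3 fell in CITED relative to MDSC. Mnt, another repressor that pairs with Max, rose by 0.89 ± 0.07 in CITED and by 0.72 ± 0.07 in MDSC-NP-Blk, and the Myc-interacting factor Zbtb17 rose by 0.37 ± 0.08 in CITED. Mxd3, a relative of Mxd1 known from dividing cells, was at −1.76 ± 0.19 in CITED and −0.43 ± 0.17 in MDSC-NP-Blk, and Mga was at −0.39 ± 0.07 in CITED. Among 25 textbook Myc targets outside the nucleolus, 15 (60.0%) fell and 3 rose in CITED, and 17 (68.0%) fell and 3 rose in MDSC-NP-Blk. Of these 25, 8 fell and 4 rose in CITED relative to MDSC-NP-Blk. Tfrc, the transferrin receptor, fell from a mean of 5972 for MDSC to 2442 for MDSC-NP-Blk, and 1013 for CITED, and the folate enzyme Shmt2 fell from 1013 to 426.0 and 313.1. Hspe1 and Odc1, a mitochondrial chaperonin and the first enzyme of polyamine synthesis, were higher in CITED than in MDSC, at 0.53 ± 0.08 and 0.32 ± 0.06.

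Genes of dividing cells and of granulocyte precursors moved with the groups. Beside the counts of this paragraph, 22.2% of all symbols fell and 22.2% rose in CITED relative to MDSC. The shares were 18.6% and 19.9% in MDSC-NP-Blk relative to MDSC, and 11.4% and 10.5% in CITED relative to MDSC-NP-Blk. All 20 genes of a proliferation list fell in CITED relative to MDSC (median −1.57), in MDSC-NP-Blk relative to MDSC (median −0.64), and in CITED relative to MDSC-NP-Blk (median −0.997). Their summed level was 2730 to 3030 CPM for MDSC, 1590 to 1870 for MDSC-NP-Blk, and 864 to 904 for CITED. Of 7 granulocyte precursor genes, 7 fell in CITED and 6 in MDSC-NP-Blk relative to MDSC, and their summed level was 2900 to 3130 CPM for MDSC, 1580 to 1670 for MDSC-NP-Blk, and 428 to 477 for CITED. Of 7 macrophage genes, 5 fell in each particle group relative to MDSC, while Adgre1 (encoding F4/80), the most abundant of them, rose in CITED (0.24 ± 0.06, adjusted p = 0.00234). Of 6 mast cell and basophil genes 5 fell in CITED while 4 rose in MDSC-NP-Blk. The macrophage genes summed to 333 to 355 CPM for MDSC, 177 to 239 for MDSC-NP-Blk, and 202 to 211 for CITED, and the mast cell and basophil genes to 461 to 499, 523 to 578, and 294 to 313. Genes of T cells, B cells, NK cells, and erythroid cells summed to at most 15.0 CPM per list, with Ncr1 and Car1 at 0 counts in every library. Of 6 B cell genes, 5 fell in CITED relative to MDSC, and their sum was 11.5 to 15.0 CPM for MDSC and 2.9 to 4.22 for CITED. Of 10 MDSC markers, 6 rose and 2 fell in CITED, and 9 rose in MDSC-NP-Blk. Of 7 dendritic cell genes, 2 rose and 1 fell in CITED, and of 6 stem and progenitor genes 1 rose in CITED and 3 in MDSC-NP-Blk. The part that these cell types and cell division have in the differences of the module was not tested.

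Transcript length and base composition also moved with the groups. Over 11272 genes with a mean above 1 CPM, the rank correlation of relative expression with transcript length was 0.21 to 0.33 in the MDSC libraries, −0.40 to 0.09 for MDSC-NP-Blk, and −0.32 to −0.17 for CITED. In MDSC-NP-Blk it was −0.40 and −0.24 in libraries 1 and 4 and −0.05 and 0.09 in libraries 2 and 3. The rank correlation with GC content was −0.25 to −0.2 in the MDSC libraries, −0.098 to 0.19 for MDSC-NP-Blk, and 0.18 to 0.29 for CITED. Over the 40 genes, the rank correlation of the log2 fold change with canonical transcript length was −0.52 in CITED and −0.46 in MDSC-NP-Blk relative to MDSC, and −0.18 in CITED relative to MDSC-NP-Blk. These are descriptions across genes that share the same libraries. Each length is that of an annotated canonical transcript, and the isoforms present in the cells were not determined. The correlations and the corrected values below depend on these lengths. The genes of the module with the longest canonical transcripts, Wdr12 (10012 bases), Nop58 (9561), Polr1a (9240), and Utp20 (8854), were all lower in both particle groups. Ncl (8288 bases), the next longest, did not pass in CITED (−0.07) and rose in MDSC-NP-Blk (0.18). The shortest of the changed genes were Nhp2 (1054 bases), Gar1 (1272), Polr1c (1463), and Rrp9 (1611), of which Nhp2 and Polr1c rose in CITED and Gar1 and Rrp9 fell. With a correction for length in each library, 20 genes fell and 9 rose in CITED relative to MDSC, and 0 passed at the 2-fold threshold in either comparison with MDSC, compared with 2 and 3 without it. The differences of several long transcripts became more than 1.5 times smaller. With correction for length and for length and GC content, in that order, CITED relative to MDSC was at −0.57 and −0.41 for Wdr12, −0.64 and −0.49 for Nop58, −0.61 and −0.62 for Polr1a, −0.50 and −0.44 for Utp20, −0.47 and −0.42 for Heatr1, and −0.27 and −0.29 for Rrp1b. In MDSC-NP-Blk relative to MDSC, Wdr12 was at −0.54 and −0.45 and Nop58 at −0.46 and −0.38. Each of these still passed the test. Increases of shorter transcripts in CITED also became smaller, to 0.25 and 0.26 for Max, 0.17 and 0.28 for Npm1, and 0.28 and 0.18 for Noc2l, and these passed as well.

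**Figure D5:**
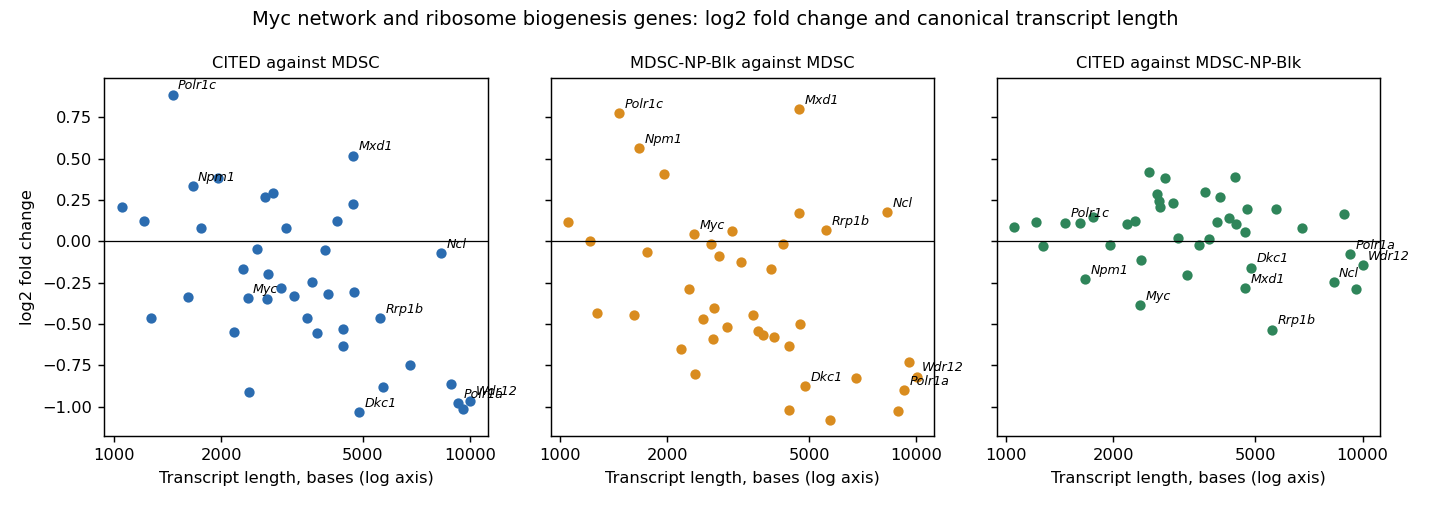
log2 fold change (y axis) against the length of the canonical transcript in bases (x axis, log scale) for the 40 genes in the 3 comparisons, with a point per gene and some genes labelled. Polr1c at 1463 bases lies highest and Wdr12 and Polr1a, at 10012 and 9240 bases, lie near −1 in the panel of CITED against MDSC.

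The order of the genes by level was compared per length, in TPM computed from the counts. The length is that of 1 annotated canonical transcript per gene, and the isoforms present in the cells were not determined. The order therefore depends on the annotation. Ncl had a mean of 7009 normalized counts in MDSC and Npm1 6169, but their lengths are taken as 8288 and 1665 bases. Npm1 was the highest in every group, at 355 ± 21.7 TPM for MDSC, 402 ± 9.80 for MDSC-NP-Blk, and 345 ± 20.3 for CITED (SD, n = 4). Mxd1 followed at 270 ± 8.39, 361 ± 25.5, and 298 ± 11.2, and Nhp2 was next at 97.4 ± 2.87, 81.3 ± 5.54, and 86.6 ± 2.19. In MDSC, Ncl (81.0 ± 0.709) and Fbl (79.1 ± 5.09) did not differ beyond their spread. In CITED, Fbl (66.3 ± 4.05) and Max (64.2 ± 1.05) likewise overlapped, whereas Myc was at 38.8 ± 4.35. Myc was at 64.1 ± 2.01 among the MDSC libraries. TPM carries no TMM factor, so it orders genes within a group and is not used here between groups. Within groups, the median coefficient of variation of the 40 genes was 6.38% for MDSC, 9.58% for MDSC-NP-Blk, and 7.41% for CITED, and Mycn varied the most in each group, up to 68.0% in CITED.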

How the data were processed

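Poly(A) RNA of 12 libraries, 4 per group, was sequenced. The authors deposited estimated counts per gene symbol, whole numbers as given, and, per the labels' processing notes, these came from Salmon (v1.4.0, with decoys) and tximport in R (v4.3.2) on GENCODE for GRCm39. The row with an empty symbol held 0 counts and was left out, and the table had 0 columns of other samples. The 40 genes and the pathway and marker lists were chosen with earlier results of these data known.

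Symbols with at least 2 counts in total were kept (17676), and edgeR (v4.0.16, R v4.3.3) was used with TMM factors and the quasi-likelihood test on all 12 libraries, with group as the only term and Benjamini-Hochberg adjustment. The SE of a log2 fold change is its size over the square root of F. TPM was computed from the counts and the canonical transcript length (GENCODE vM39). Libraries held 20604809 to 37855478 counts, and the biological coefficient of variation was 9.03%. Replicates differed beyond sampling noise (chi-square per degree of freedom 4.72 to 21.8). The study describes the libraries as biologically independent. Values in every library were given for the Myc network, for the 2 genes of each other role group with the lowest p in CITED relative to MDSC, for genes called against most of their group, and for the 3 lowest p in each other comparison. From the pathway lists, the 2 lowest p in each direction were named. The alternatives were DESeq2 (v1.42.0), other scalings and filters, corrections for transcript length and GC content, a replicate block, and omitted libraries. Scripts were tested on simulated data.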

Additional observations from a re-analysis of the deposited data

Results flagged for a closer look

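Of the 120 sets of 4 libraries (40 genes in 3 groups), 10 held a library that stood apart from the rest of its group by Dixon's test of the gap over the range, and chance gives about 1 in 20. In CITED, Polr1b stood high in library 2 (217.7 normalized counts, beside 191.5 to 195.6) and Nop56 stood high in library 4 (706.2, beside 607.2 to 616.3). Gar1 stood low in CITED library 2 (101.5, beside 147.0 to 154.2), Utp20 in CITED library 3 (278.6, beside 324.0 to 331.8), Ddx10 in CITED library 3 (365.2, beside 423.7 to 432.9), and Noc2l in CITED library 1 (1709, beside 1806 to 1825). In MDSC-NP-Blk, Ddx10 stood high in library 4 (520.4, beside 455.4 to 464.9) and Wdr12 in library 3 (324.2, beside 207.0 to 223.2). In MDSC, Npm1 stood high in library 1 (6732, beside 5911 to 6029) and Rrp1b stood low in library 2 (1252, beside 1458 to 1480).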

How the results depend on the processing

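For the 17 genes given in every library, 1202 of 1224 alternative values kept their side of the threshold without a reversal, 6 were weaker, 9 were stronger, and 7 reversed. Many of these genes were chosen for their low p, so their calls could hardly change. Some alternatives also omitted a library that is in neither group of the comparison. The total is therefore not a measure of how stable the whole module is. Calls lost by other genes, such as Nop58, Rrp9, and Rrp12, are not in it. A change of sign was counted as a reversal only where the main or the alternative value passed. Values that passed in neither could change sign and still count as kept. Scaled by library size alone, Myc (−0.22), Ubtf (−0.0933), and Rrp1b (−0.20) in MDSC-NP-Blk and Ubtf (−0.0473) and Nhp2 (−0.069) in CITED reversed relative to MDSC. Nhp2 in CITED also reversed with correction for length (−0.0116) and for length and GC content (−0.0679). In CITED relative to MDSC, library size alone gave 2 higher, 8 at the 2-fold threshold, and a median of −0.58, upper quartile factors gave 1 at that threshold, the length correction 0, and the length and GC correction 1 with a median of −0.23. In MDSC-NP-Blk relative to MDSC, library size alone gave 8 at the 2-fold threshold and a median of −0.70, the length correction gave 0, and the length and GC correction gave 0 with a median of −0.37. Omitting MDSC-NP-Blk libraries 1 and 4 gave 0 with a median of −0.29, and omitting libraries 2 and 3 gave 6. In CITED relative to MDSC-NP-Blk, 8 were higher with the length correction, 8 with length and GC, 3 without libraries 1 and 4 (median −0.0357, reversed), and 11 without libraries 2 and 3. The cause of these shifts was not tested, and the length and GC correction and the paired omissions were chosen after seeing the data.

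Leaving out each library in turn gave 7 to 8 higher, 20 to 22 lower, 1 to 3 at the 2-fold threshold, and a median of −0.33 to −0.26 in CITED relative to MDSC. It gave 5 to 6, 21 to 23, 0 to 4, and −0.47 to −0.38 in MDSC-NP-Blk relative to MDSC, and 3 to 8, 5 to 6, 0 to 0, and 0.06 to 0.11 in CITED relative to MDSC-NP-Blk.

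The same replicate numbers recur in the 3 groups. The 12 pairs of libraries with the same number had correlations of −0.05 to 0.10 in their deviations from the group means, none over 0.1. Pairs with different numbers had −0.13 to 0.13. A low correlation cannot show whether libraries share a mouse or a marrow preparation, so the meaning of the number stays unknown. With a replicate block, 8 genes were higher and 22 lower in CITED and 6 higher and 22 lower in MDSC-NP-Blk relative to MDSC, and 6 were higher and 6 lower in CITED relative to MDSC-NP-Blk. The block changed no call of the 17 genes. Mycn is limited by its low counts and by 1 CITED library that held 1 read of it.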
